A study of Mus musculus with 15 samples.

Results

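Nr1d1 encodes RevErbalpha, and the sites described here are the places at this gene where tagged RevErb proteins were found. They were chosen as the rows of the authors' summary table whose assigned gene is Nr1d1. This gave 3 of the 1544 sites common to RevErbalpha and RevErbbeta, and 1 of the 1220 gene IDs that have such a site. No measured value entered that choice beyond the listing of the sites for RevErb binding, and Nr1d1 was taken up with earlier results of these data known.

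RevErbalpha is a nuclear receptor that binds DNA without the activating helix that other receptors use, takes heme as its ligand, and represses genes by bringing the corepressor NCoR and the histone deacetylase HDAC3 to chromatin. It is a core part of the circadian clock: the activators Clock and Bmal1 (gene Arntl) switch Nr1d1 on, and RevErbalpha in turn represses Arntl. The Nr1d1 gene is also known as a target of its own product, through a RevErb binding element at its start that was first described in the human gene.

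Binding was measured in RAW cells, a mouse macrophage line. Biotin ChIP-seq was done in cells with biotinylated RevErbalpha (3 runs), in cells with biotinylated RevErbbeta (3 runs) and in control cells with BirA, the biotin ligase (1 library, in a column named BirA-input, which could also stand for an input library). Capped nascent 5' ends were measured by 5'GRO-seq in biotinylated RevErbalpha RAW cells and in control RAW cells labelled BTEV-Ctrl. Nascent RNA on engaged polymerase was measured by GRO-seq in bone marrow derived macrophages with Tie2-Cre and floxed alleles of both genes (DKO; RevErbalpha flox/flox and RevErbbeta flox/flox) and with the same floxed alleles and no Cre in the label (WT). Every sample is labelled with a C57Bl6 background, the RAW line included, although that line was derived from a BALB/c mouse. Tie2-Cre is active in blood and endothelial cells, and how much of either gene it removed in these macrophages was not given in the sources used here. The labels hold 1 sample for each group, 7 of 15 samples were used, and runs are treated as repeat runs of 1 sample, since no label says whether they came from separate cultures. No comparison below has a replicate check, and none carries a p-value. Libraries of treated cells also appear in the file header, and treatment is not given for the numbered runs. The remaining 8 samples, histone mark and PU.1 ChIP-seq, were not analysed here.

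The RevErb runs held 598490 to 5276592 tags, the BirA library 10548880, and the 5'GRO-seq libraries 7238710 tags with tagged RevErbalpha and 18708148 in control cells. Gene-level GRO-seq runs had totals of 34852907 to 46649008 in the file header. Of 13 listed macrophage markers, 8 had gene values, Cd14, Csf1r and Fcgr1 among them, with log2 values of 8.97 to 14.68 in DKO runs and 8.77 to 14.63 in WT runs. Their DKO minus WT differences lay between -0.095 and 0.445, and none was counted as changed by the rule used below for genes. The only other listed marker with a value was Vwf, an endothelial gene, at 9.72 and 9.92 in DKO runs and 9.54 and 9.70 in WT runs. The table gives values only for genes with a common site, so other markers were not analysed here. In these bulk samples, fewer cells of a type and less RNA per cell cannot be told apart.

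The sites of Nr1d1 lie on chromosome 11 (mouse build mm9), each 157 bp long. The start site, chr11:98636608-98636764, is centred 130 bp upstream of the gene start in the authors' list of starts. The intragenic site, chr11:98635055-98635211, is centred 1423 bp downstream of that start, inside the gene. The upstream site, chr11:98644796-98644952, is centred 8318 bp upstream. The authors put the start and intragenic sites in a class written m3>m1, read here as more H3K4me3, a promoter mark, than H3K4me1, an enhancer mark. They classed the upstream site as an intergenic enhancer, and it is also in their list of intergenic sites with high H3K4me1 and low H3K4me3.

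The promoter of Nr1d1 is shown because the strongest site falls at the gene start. RefSeq gives it on GRCm38.p6 (chr11:98775328-98775627, minus strand), from 250 bases before the RefSeq start to 50 bases from the start onward. The capitals mark the stretch that comes closest to a pair of AGGTCA motifs in the same direction with 2 bases between them, which is the layout of a RevErb dimer element.

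Nr1d1 promoter: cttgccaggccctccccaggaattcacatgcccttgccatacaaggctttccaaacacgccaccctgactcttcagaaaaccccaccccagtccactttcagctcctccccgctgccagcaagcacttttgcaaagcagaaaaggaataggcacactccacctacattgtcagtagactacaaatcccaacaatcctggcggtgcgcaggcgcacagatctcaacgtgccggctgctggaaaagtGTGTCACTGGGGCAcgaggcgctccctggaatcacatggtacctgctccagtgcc

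The capitals run from base 246 to base 259 of the 300 shown, across the RefSeq start. They differ from the motif pair at 4 of 12 fixed bases, A1G, G2T, A9G and T12G, where the motif's base comes first and positions count from 1 at the 5' end of the pair. No other stretch on either strand of this promoter came as close. Such a match is common, since 77.5% of the 32851 RefSeq promoters of the same length hold a stretch with 4 or fewer differences. The exact AGGTCA motif was found in 16.3% of all promoters, and the E-box CACGTG, the site of Clock and Bmal1, in 7.15%. Neither was found on either strand of these 300 bases. The deposited coordinates are on mm9, so the site was not laid onto this sequence base by base.

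RevErb signal was far above BirA at all 3 sites for both proteins, and highest at the gene start. The sites were listed for binding of both proteins, so signal above BirA is no separate result. At the start site the log2 values, in tags scaled to 10000000 per library, were 6.43, 8.19 and 8.50 for RevErbalpha, 8.74, 8.55 and 8.63 for RevErbbeta, and 1.61 for BirA. The start site was the highest of the Nr1d1 sites in all 6 RevErb runs. It ranked 24 of 1544 by the mean of both proteins, and 4 of the 301 sites of its class.

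At the intragenic site the RevErbalpha runs read 5.06, 7.06 and 6.76, the RevErbbeta runs 6.19, 7.32 and 6.12, and BirA 1.37. At the upstream site the RevErbalpha runs read 5.72, 4.85 and 5.45, the RevErbbeta runs 5.65, 6.26 and 4.70, and BirA 0.98. These sites ranked 273 and 856 of 1544, so the upstream site was bound at about the level of the typical common site, where the medians were 5.45 for RevErbalpha, 5.68 for RevErbbeta and 1.10 for BirA. The intragenic site lay above the upstream site in both shallow RevErbalpha runs and in all RevErbbeta runs, and below it in the deep RevErbalpha run.

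RevErbbeta read higher than RevErbalpha at the start site, but the size of that gap depended on the runs. The means were 8.64 ± 0.10 for RevErbbeta and 7.71 ± 1.12 for RevErbalpha (SD over 3 runs), a difference of 0.93, and all RevErbbeta runs lay above all RevErbalpha runs, as at 7.38% of all sites. In the deeper runs the difference was 2.215, with 8.645 for RevErbbeta and 6.43 for RevErbalpha. In the shallow runs it was 0.285, with 8.63 for RevErbbeta and 8.345 for RevErbalpha. Across all sites the median difference was 0.89 in the deeper runs and -0.295 in the shallow ones, so the start site lay above the median on both scales. At the intragenic and upstream sites the runs of the proteins overlapped, and the sign of the difference turned between the deeper and the shallow runs. Depth cannot be told apart from other differences between these runs, whose treatment is not given. The RevErbbeta minus RevErbalpha difference at the intragenic site was 1.695 in the deeper runs and -0.79 in the shallow ones, with 0.25 over all runs. At the upstream site it was 0.235 in the deeper runs and -0.45 in the shallow ones, with 0.20 over all runs.

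The depth behind these values was uneven. At the start site the values stood for about 159, 182 and 30 tags with RevErbbeta and 44, 19 and 21 with RevErbalpha, against 2 in the BirA library. At the upstream site the shallow runs held only 1 or 2 tags each, and its signal rested on about 18 and 36 tags in the deep RevErbbeta runs and 27 in the deep RevErbalpha run.

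**Figure D1:**
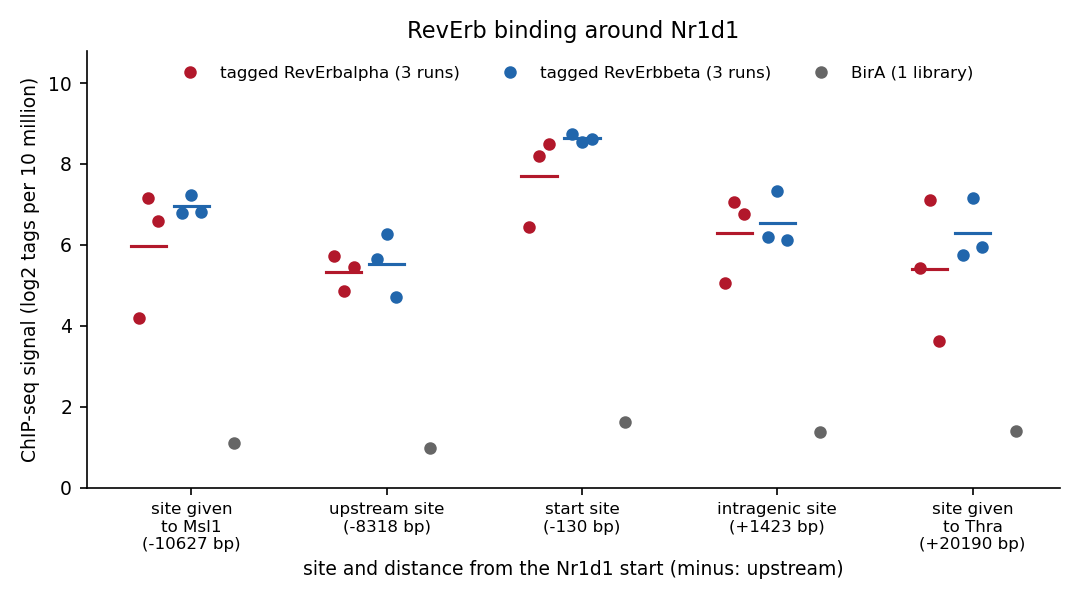
ChIP-seq signal (log2 tags per 10000000) at the 5 common sites within 25 kb of the Nr1d1 start, placed in order along the locus and not to scale. Points are runs, bars are means of 3 runs. All RevErb points lie above the BirA points, at sites listed for RevErb binding, and the start site is the highest in both proteins.

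The next comparison asked how capped nascent RNA at these sites differed in cells carrying tagged RevErbalpha. It was lower at all 3 Nr1d1 sites, and more so at the start and intragenic sites than at the upstream site. Which of the start and intragenic sites fell more cannot be told, since the intragenic value rests on about 0 tags. At the start site the log2 value was 3.44 with tagged RevErbalpha and 7.97 in control cells, a difference of -4.53. These values stood for about 7 tags (exact Poisson 95% interval 2.8 to 14.4) in the library with tagged RevErbalpha and 471 (429 to 516) in the control library. After scaling for depth the control signal was 25.8 times that with tagged RevErbalpha (exact 95% interval 12.4 to 64.6). Intervals here cover counting error in 1 pair of libraries only. Reads without molecular identifiers are not independent molecules.

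At the intragenic site the values were 0.53 with tagged RevErbalpha and 5.0 in control cells, a difference of -4.47 that includes the random part of a tag present in such low values. The library with tagged RevErbalpha held about 0 tags there (exact Poisson 95% interval 0 to 3.69), and the control library held 58 (44.0 to 75.0). The exact 95% interval of the control signal over that with tagged RevErbalpha began at 5.85 times, with no upper bound. At the upstream site the values were 5.73 with tagged RevErbalpha and 7.16 in control cells, a difference of -1.43, from about 37 and 267 tags. The control signal there was 2.77 times that with tagged RevErbalpha (exact 95% interval 1.96 to 4.02).

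The order of the sites differed between the cells. With tagged RevErbalpha the upstream site had the most capped nascent RNA, followed by the start and the intragenic site, while in control cells the start site had the most, followed by the upstream and the intragenic site. All 3 Nr1d1 sites were lower by 1 or more on the log2 scale, a size reached downward by 20.0% of all 1544 sites. By size of the decrease the start and intragenic sites ranked 5 and 6 of 1544, and the upstream site 201. Among the 251 sites whose control value lay within 0.5 of that of the start site, the start site had the largest decrease, and the median difference of these sites was -0.27. Among 195 sites of like control level the intragenic site ranked 2, and among 271 the upstream site ranked 19. With 10 in place of 1 added before the logarithm, the differences were -3.71, -1.97 and -1.29 at the start, intragenic and upstream sites, and their ranks were 1, 22 and 105 of 1544. The rank of 6 for the intragenic site thus rested on a library with about 0 tags there.

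The 5'GRO-seq window was 500 bp and the centres of the start and intragenic sites lie 1553 bp apart, so their windows did not overlap. A window centred on the start site covers the gene start itself, and one on the intragenic site lies within the transcribed gene. The library with tagged RevErbalpha was the shallower of the pair, with 7238710 tags against 18708148, and the median difference over all sites was -0.23. The part of depth in these values was not tested.

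The libraries labelled DKO and WT were then compared at the same sites. GRO-seq signal was higher in DKO macrophages at the start and intragenic sites and differed little at the upstream site. The log2 values at the intragenic site were 6.155 in DKO and 4.56 in WT macrophages, a difference of 1.595, or 3.02 times on the linear scale. At the start site they were 5.80 in DKO and 4.62 in WT macrophages, a difference of 1.18 or 2.27 times. At the upstream site they were 4.60 in DKO and 4.25 in WT macrophages, a difference of 0.35.

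Of the Nr1d1 sites, 2 were higher by 1 or more, as were 3.37% of all 1544 sites. The intragenic site ranked 9 of 1544, the start site 26 and the upstream site 329 by this difference, and the intragenic site ranked 1 of the 301 sites of its class. Among the 322 sites with a WT value within 0.5 of that of the intragenic site, the intragenic site had the largest difference, against a median of 0.02. Among 309 such sites the start site ranked 3, and among 317 the upstream site ranked 66. With 10 added before the logarithm the start site no longer met the size rule, with a difference of 0.95, while the intragenic site had 1.30. Their ranks were then 4 and 1 of 1544. GRO-seq values at sites were deposited as 1 column per genotype, with no runs and no counting window stated, so their error is unknown.

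**Figure D2:**
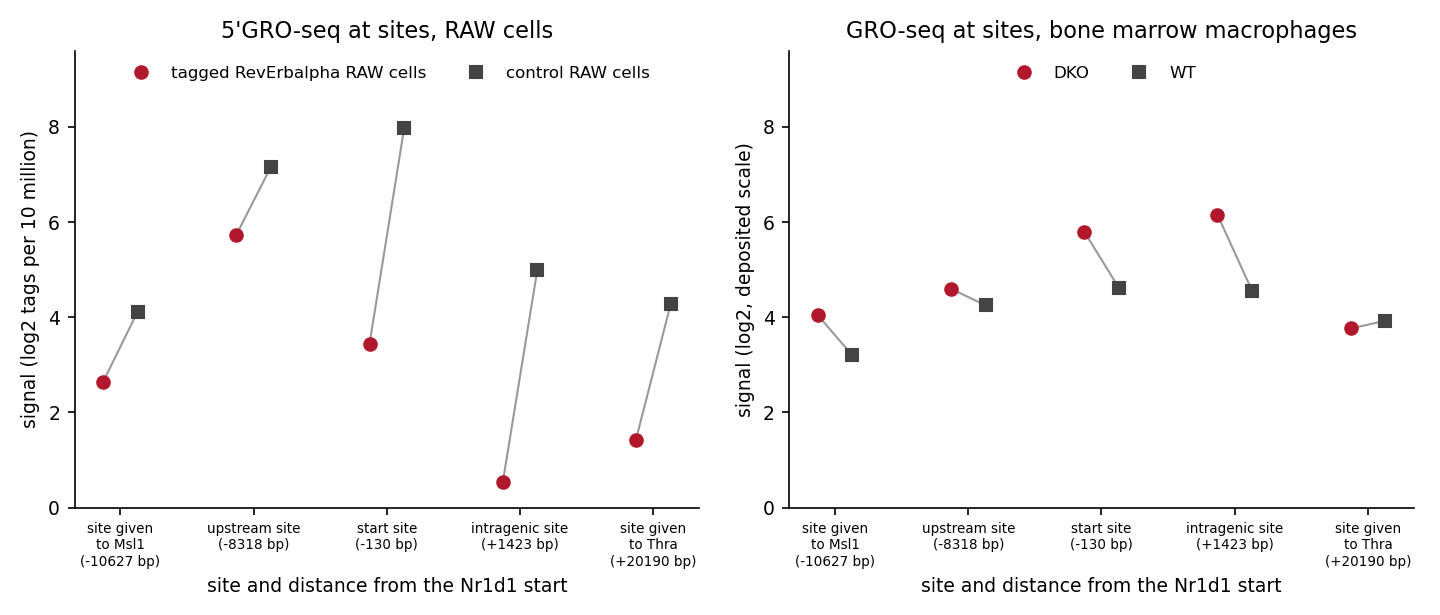
Left, 5'GRO-seq signal (log2 tags per 10000000) in tagged RevErbalpha and control RAW cells. Right, GRO-seq signal (log2, deposited scale) in DKO and WT bone marrow derived macrophages. Each pair of points is 1 site within 25 kb of the Nr1d1 start, with 1 library or 1 deposited column for each point. The left pairs are lower with tagged RevErbalpha at all 5 sites, and the right pairs are widest at the start and intragenic sites.

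The start and intragenic sites combined both differences, lower with tagged RevErbalpha and higher in DKO by 1 or more. This held at 18 of 1544 sites (1.17%), and the Nr1d1 sites had the largest decreases in 5'GRO-seq among the 18 on the deposited scale. Sites assigned to Cx3cr1 (-2.12 with 1.385, and -1.51 with 1.195) and Arntl (-1.84 with 1.13) were also among the 18. The largest GRO-seq difference among the 18 was 2.03, at a site assigned to Dnttip2. The experiments used different cells, the RAW line and primary macrophages, and different assays. The start and intragenic sites lie at 1 gene. Their GRO-seq values and the gene-level value may share reads, so they are not separate results. In the plane of both differences the nearest site to the start site was the intragenic site of the same gene, at a distance of 0.42. That distance rests on the intragenic value from about 0 tags, and with 10 added the 5'GRO-seq differences of these sites were -3.71 and -1.97. The nearest sites of other genes were assigned to Hnrnpl (0.96), Pak1ip1 (0.97), Smpdl3a (0.99), Igf2bp2 (1.05) and P4ha2 (1.07). The Hnrnpl and Pak1ip1 sites, with 0.42 and 0.11 in tagged RevErbalpha cells, also lay below the value of 1 tag. The 5 sites had 5'GRO-seq differences of -4.28 to -5.30, but their GRO-seq differences were only 0.11 to 0.585, and the genes assigned to them differed by -0.26 to 0.48 between DKO and WT.

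**Figure D3:**
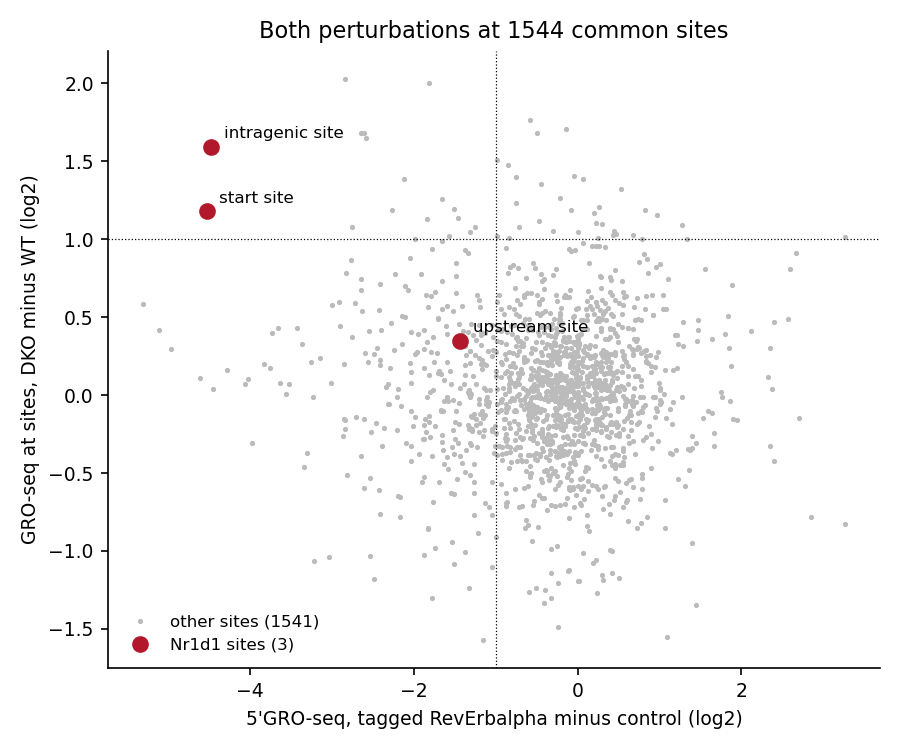
Difference in 5'GRO-seq (tagged RevErbalpha minus control, log2) against difference in GRO-seq (DKO minus WT, log2) for 1544 common sites. Dotted lines mark -1 and 1. The start and intragenic sites of Nr1d1 stand at the upper left, at -4.53 and 1.18 and at -4.47 and 1.595, and the upstream site lies at -1.43 and 0.35.

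Transcription of the Nr1d1 gene as a whole was higher in DKO macrophages. The gene-level log2 values were 9.44 and 9.56 in the DKO runs, against 7.91 and 7.48 in the WT runs. The runs did not overlap, and the lowest DKO run lay 1.53 above the highest WT run. The means were 9.50 ± 0.08 in DKO and 7.70 ± 0.30 in WT (SD over 2 runs of 1 sample each), a difference of 1.80 or 3.49 times on the linear scale.

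Nr1d1 was counted as higher, by a rule that asks for a difference of 0.5 or more and runs that do not overlap, which 1.97% of the 1220 genes met upward and 0.738% downward. Its difference ranked 1 of 1220, followed by Cx3cr1, the fractalkine receptor gene, with 1.645. Without WT run 2 it was 1.59 and Cx3cr1 had a larger one, while without any other single run Nr1d1 ranked 1. The median difference of all genes was 0.035. Among the 122 genes with a WT signal within 0.5 of that of Nr1d1, no other met the rule upward, and the next difference was 0.45, at Cd200r4, a gene of the CD200 receptor family.

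The gene-level values cover the gene as the authors counted it. Nr1d1 was itself a target of the knockout, and which exons were floxed and counted was not given in the sources used here, so the values do not show whether functional Nr1d1 RNA was made or whether the deletion took place. Nr1d2, the gene of RevErbbeta and the other target, was not analysed here. The spans of Nr1d1 and Thra, the thyroid hormone receptor alpha gene, overlap in the RefSeq annotation, and whether gene counting used strand is not stated, so reads of the shared stretch cannot be told apart.

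**Figure D4:**
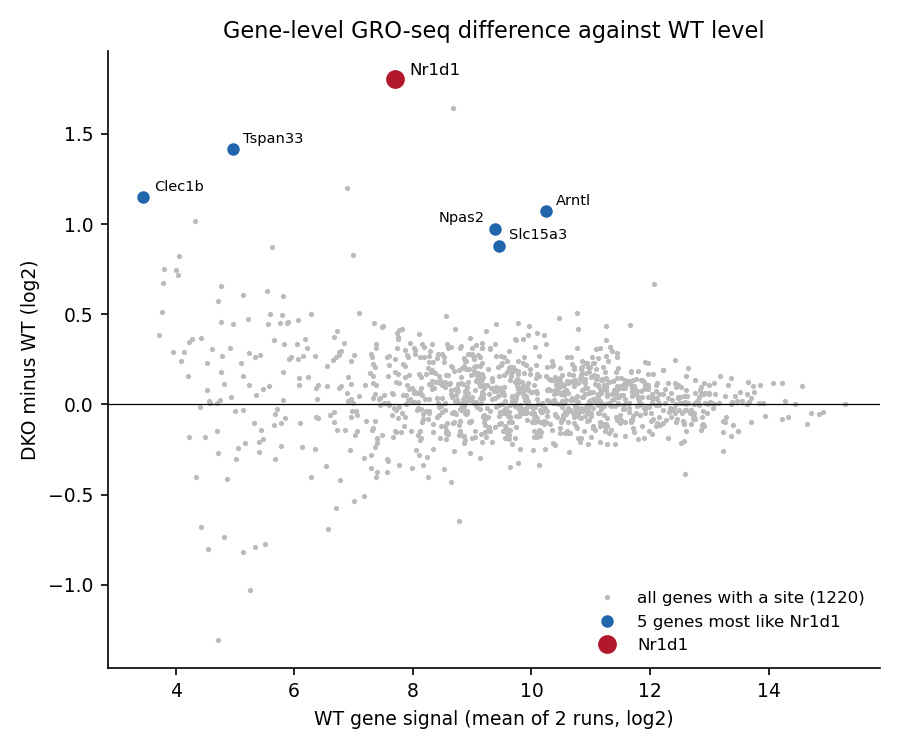
DKO minus WT difference in gene-level GRO-seq (log2) against the WT level (mean of 2 runs, log2) for 1220 genes with a common site. Nr1d1 stands highest, at 1.80, above genes of like WT signal. The blue points are the 5 genes whose 4 run values were most like those of Nr1d1.

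The genes whose run values followed Nr1d1 most closely were found by the Euclidean distance of the 4 gene-level runs, each gene centred on its own mean. They were Clec1b (0.66), a platelet and myeloid lectin receptor gene, Tspan33 (0.81), a tetraspanin gene, Arntl (0.86), Npas2 (0.86) and Slc15a3 (0.94), a lysosomal peptide transporter gene. The median distance of all other genes was 1.81. The DKO minus WT difference enters this distance directly, so the list largely picks genes with a large difference, here 0.88 to 1.415. It is not a separate result. Slc15a3 read 10.35 and 10.31 in the DKO runs and 9.61 and 9.29 in the WT runs. Clec1b and Tspan33 had little signal, with values of 4.48 and 4.74 and of 6.0 and 6.76 in the DKO runs, against 3.71 and 3.21 and 4.79 and 5.14 in the WT runs.

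Sites of other genes nearby on chromosome 11 had smaller GRO-seq differences than the start and intragenic sites. Within 1000 kb of an Nr1d1 site there were 5 sites assigned to other genes. The closest, chr11:98647105-98647261, was assigned to Msl1, a subunit gene of a histone acetyltransferase complex, but lies 2309 bp from the upstream site of Nr1d1 and 10627 bp upstream of the Nr1d1 start. It was bound at 4.19, 7.17 and 6.59 by RevErbalpha and at 6.80, 7.23 and 6.82 by RevErbbeta over the runs, against 1.11 for BirA. Its 5'GRO-seq values were 2.64 with tagged RevErbalpha and 4.12 in control cells, from about 3 and 30 tags, a difference of -1.48. Its GRO-seq values were 4.045 in DKO and 3.20 in WT macrophages, a difference of 0.845. Msl1 itself read 9.74 and 9.86 in the DKO runs and 9.91 and 9.73 in the WT runs, so these runs overlapped.

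On the other side, the site assigned to Thra, chr11:98616288-98616444, lies 20190 bp downstream of the Nr1d1 start. Its 5'GRO-seq values were 1.43 with tagged RevErbalpha and 4.27 in control cells, from about 1 and 34 tags, a difference of -2.84. Its GRO-seq values, 3.765 in DKO and 3.925 in WT macrophages, differed by -0.16. Thra read 9.19 and 9.39 in the DKO runs and 9.14 and 8.90 in the WT runs, a difference of 0.27 that is below the size rule. The farther sites, of Psmd3, Stard3 and Rara, had 5'GRO-seq differences of -0.26, -0.49 and 0.17 and GRO-seq differences of 0.23, 0.11 and 0.555. None of the 5 neighbouring genes was counted as higher or lower in DKO.

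Other clock genes were described for comparison. Of 24 listed clock genes, 7 had a common site, and apart from Nr1d1 itself 2 of 6 were counted as higher in DKO (Arntl and Npas2) and none as lower, against 1.97% of all 1220 genes higher and 0.738% lower. Arntl, the gene of Bmal1 and a known RevErb target, read 11.37 and 11.25 in the DKO runs and 10.17 and 10.31 in the WT runs. Npas2, a gene related to Clock, read 10.38 and 10.34 in the DKO runs and 9.47 and 9.30 in the WT runs. The differences were 0.21 for Per1 and 0.12 for Cry1, feedback repressors of the clock, -0.02 for Clock and -0.185 for Bhlhe40, another repressor. The Bhlhe40 runs, 7.94 and 7.96 in DKO and 8.25 and 8.02 in WT, did not overlap, but the difference is below the size rule. The median of the 6 genes other than Nr1d1 was 0.165, against 0.035 for all genes.

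Of the 9 sites of these 6 genes, 3 were lower by 1 or more with tagged RevErbalpha, all assigned to Arntl (-1.38, -1.84 and -2.46), a size reached downward by 20.0% of all sites. At Cry1, 1 was higher (1.85), a size reached upward by 4.92% of all sites. Its values were low, 2.06 with tagged RevErbalpha and 0.21 in control cells, and the control value lay below that of 1 tag. The -2.46 at Arntl also rested on low values, 1.54 with tagged RevErbalpha and 4.0 in control cells. That Arntl site lies 62917 bp upstream, and its GRO-seq difference was -0.18. RevErbalpha binding was similar at the Arntl and Nr1d1 start sites, with means of 7.89 and 7.71, and RevErbbeta binding was 9.25 and 8.64. The 5'GRO-seq values of the Arntl start site were 3.91 with tagged RevErbalpha and 5.29 in control cells. In GRO-seq, 2 of the 9 sites were higher by 1 or more in DKO, at Npas2 (1.355) and Arntl (1.13). That size was reached upward by 3.37% of all sites. The GRO-seq difference at the Arntl start site was 0.93.

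**Figure D5:**
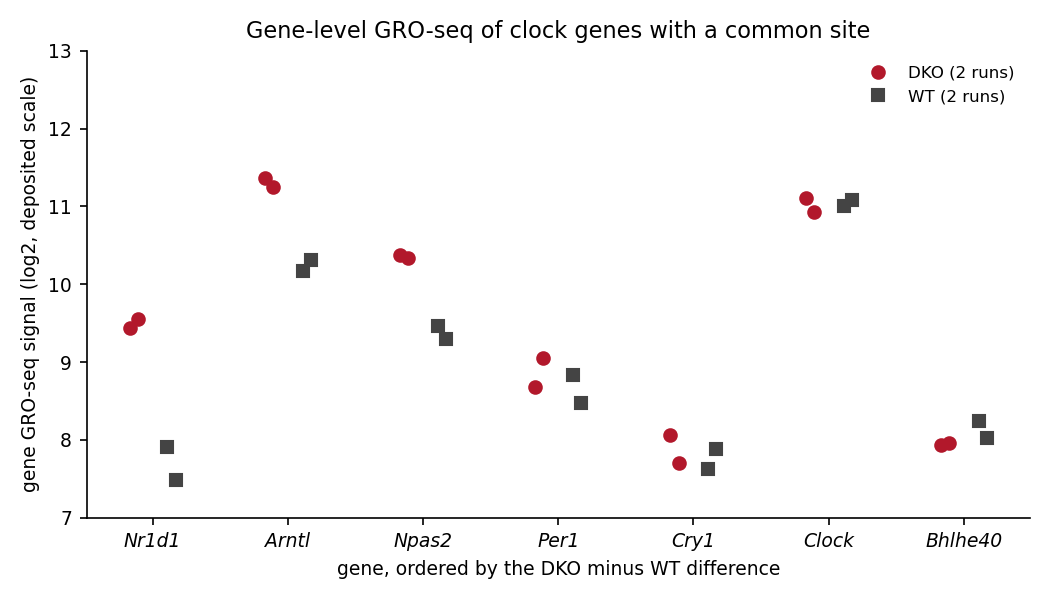
Gene-level GRO-seq signal (log2, deposited scale) of the 7 listed clock genes with a common site, ordered by the DKO minus WT difference. Points are runs, 2 for each genotype. The runs are apart for Nr1d1, Arntl and Npas2, with DKO above WT, and close together or overlapping for the rest.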

How the data were processed

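The values come from 4 tables the authors deposited. The submitters' processing notes name mm9, Bowtie 0.12.7 and HOMER, without the settings of peak calling. ChIP-seq and 5'GRO-seq values are deposited log2 tags in 157 and 500 bp, scaled to 10000000 tags per library, per the file headers. The scale of the deposited log2 GRO-seq values is not stated there. Low ChIP-seq and 5'GRO-seq values were spread below 1 tag, as if a random part of a tag had been added. Tag numbers, from undoing the logarithm and scaling and dropping that part, are approximate.

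Run means and differences were recomputed and lay within 0.01 of the authors' columns. A site was counted at a difference of 1, and a gene at 0.5 with runs that did not overlap. Each group has 1 sample, so no test was run. The gene and likeness rules were run on simulated data with known changes added, which does not measure their error in these data. RefSeq (GRCm38.p6) matched 1208 of 1220 gene IDs and gave the promoter. Named genes were Nr1d1, listed clock genes, genes of sites within 1000 kb, and the 5 genes and sites most like Nr1d1. A further gene list is not reported here. Members and lists were chosen with earlier results of these data known. The exceptions are Cx3cr1 and Cd200r4, named after their values were seen as next in order. Alternatives were another pseudocount, median centring, leaving out runs, deeper runs alone and a filter on low values. Scripts ran in Python 3.11.15 with scipy 1.17.1.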

Additional observations from a re-analysis of the deposited data

How the results depend on the processing

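Over 48 alternative values of 13 Nr1d1 results no direction changed. Many of these values were binding above BirA, which could hardly turn, since the sites were listed for RevErb binding. The RevErbbeta minus RevErbalpha difference was not among the 13. Its sign turned between the deeper and the shallow runs at the intragenic and upstream sites. The gene difference, 1.80, lay between 1.59 and 2.02 with 1 run left out, and was 1.76 with 10 added before the logarithm and 1.77 when centred on the median gene. Binding above BirA shrank with 10 added, to 4.19 for RevErbalpha and 5.08 for RevErbbeta at the start site, 2.94 and 3.15 at the intragenic site and 2.18 and 2.36 at the upstream site. With runs over 1000000 tags alone, RevErbalpha minus BirA was 4.82 at the start site and 3.69 at the intragenic site. The cause was not tested. Background counts moved more. Genes counted as higher in DKO, 24 in all, numbered 7 above the lower quartile of level and 33 to 67 with 1 run left out, and those counted as lower, 9 in all, numbered 1 and 17 to 27. A rule on 3 runs asks less of their order than one on 4. Sites lower with tagged RevErbalpha, 309 in all, numbered 176 above the lower quartile and 181 with 10 added. Sites higher in DKO, 52 in all, numbered 29 and 3, and the start site was not among the 3. Low signal limits the intragenic, Msl1, Thra and Cry1 values and the farthest Arntl value in 5'GRO-seq, and the upstream site in the shallow ChIP-seq runs.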
